A study of Mus musculus with 3 samples.

Results

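The 29 genes described here make up a module for cholesterol and fatty acid synthesis. They were taken by symbol from a given list and not by a rule on their values, but with earlier results of these data known. All 29 were found among the 31053 genes of each count table. They fall into 19 enzymes of the mevalonate and sterol pathway, 6 regulators or transport proteins, and 4 enzymes of fatty acid synthesis. The data were single-cell RNA sequencing libraries, made with a droplet 3' kit. They held C57BL/6 bone marrow cells enriched by Kit, the stem cell factor receptor found on early blood progenitors, by 1 label, while another names bone marrow neutrophils. The series' own design text counts 2 samples and names another treatment, and the labels of the single libraries were followed. The mice of the twice-challenged library received Escherichia coli 2 times (labelled 48 h), those of the once-challenged library 1 time (labelled 24 h), and those of the unchallenged library were at steady state. Each group is 1 library with no replicate, so no test between groups was possible, and the labels do not say how many animals a library holds. Every interval below is an exact 95% interval that covers counting error only.

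Cells make cholesterol from acetyl-CoA through mevalonate, the isoprenoid farnesyl diphosphate, squalene and lanosterol, and they make fatty acids from the same starting unit. SREBP-2, encoded by Srebf2, drives the sterol genes, and SREBP-1, encoded by Srebf1, drives the fatty acid genes. Both are held in the endoplasmic reticulum with the escort protein Scap by the INSIG proteins while sterol is plentiful, and are carried to the Golgi and cleaved when it runs short. Dividing progenitors need new membrane, while neutrophils divide no more once they mature.

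The promoters of the module are shown for 3 members, Hmgcs1 because it held the sterol regulatory element searched for, and Insig1 and Insig2 because in neutrophil progenitor-like cells Insig1 was higher and Insig2 lower after 2 challenges than in the unchallenged library. Each window covers 250 bases before to 50 bases after a RefSeq gene start on GRCm38.p6, read 5′ to 3′ on the gene's strand. Capitals mark the motif TCACNCCAC, a sterol regulatory element, and the motif CCAAT, bound by NF-Y, on either strand. Hmgcs1 lies at chr13:119690101-119690400 on the plus strand, Insig1 at chr5:28071162-28071461 on the plus strand, and Insig2 at chr1:121332540-121332839 on the minus strand, the last being 1 of 3 listed starts of that gene. The Insig2 windows not shown held no CCAAT.
Hmgcs1: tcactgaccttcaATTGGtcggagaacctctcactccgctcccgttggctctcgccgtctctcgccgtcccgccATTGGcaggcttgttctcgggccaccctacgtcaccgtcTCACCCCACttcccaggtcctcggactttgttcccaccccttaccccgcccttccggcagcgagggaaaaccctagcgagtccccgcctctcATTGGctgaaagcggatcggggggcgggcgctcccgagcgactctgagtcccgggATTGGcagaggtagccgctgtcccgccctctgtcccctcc
Insig1: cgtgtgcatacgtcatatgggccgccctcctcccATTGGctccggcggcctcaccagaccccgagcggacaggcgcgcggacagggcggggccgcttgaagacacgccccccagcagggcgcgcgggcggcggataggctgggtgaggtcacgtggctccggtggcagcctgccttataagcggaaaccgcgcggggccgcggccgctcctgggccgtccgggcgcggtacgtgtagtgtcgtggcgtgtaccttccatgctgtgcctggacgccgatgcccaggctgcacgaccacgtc
Insig2: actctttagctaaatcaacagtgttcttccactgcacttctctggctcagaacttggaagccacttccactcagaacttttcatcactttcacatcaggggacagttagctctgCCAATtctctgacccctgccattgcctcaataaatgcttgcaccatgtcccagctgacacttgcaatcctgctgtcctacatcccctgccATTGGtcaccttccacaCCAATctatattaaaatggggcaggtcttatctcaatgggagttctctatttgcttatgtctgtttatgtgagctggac

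Windows were found for 24 of the 29 members, not for Fdps, Fdft1, Sqle, Stard4 or Scd2. A member was counted for a motif when any of its windows held it. TCACNCCAC on either strand stood in the windows of 1 of 24 members (4.17%), Hmgcs1, where it began 137 bases before the start, against 1.44% of the 27025 genes with a window. CCAAT stood in 21 of 24 (87.5%) against 41.1% of all genes, and GGGCGG, a motif bound by Sp1, in 20 of 24 (83.3%) against 38.2%. CACGTG, an E-box, stood in 5 of 24 (20.8%) against 8.09%. A match is only a description of these letters.

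The unchallenged, once-challenged and twice-challenged libraries held 119646078, 135079828 and 95522747 UMIs (unique molecular identifiers, each counting 1 captured transcript molecule) in 9684, 9060 and 8923 cell barcodes, of which 8796, 8356 and 8286 were kept. The median kept cell held 10969, 13004 and 10248 UMIs, and its mitochondrial share was 2.07%, 2.58% and 4.10%. Between 103 and 125 barcodes were shared by each pair of libraries. Classes were named from marker genes after clustering without the module. Of kept cells, those like haematopoietic stem and progenitor cells (HSPC-like) made up 10.4% in the twice-challenged and 15.9% in the once-challenged library, against 8.83% in the unchallenged one. Neutrophil progenitor-like cells made up 21.2% and 13.9% against 7.32%, and immature neutrophil-like cells 18.5% and 14.04% against 41.8%. Levels are counts per 1000000 UMIs summed over a class (CPM), and such sums do not tell fewer transcripts in each cell from fewer expressing cells. Genes of neutrophil specific granules summed to 12595, 2164 and 2331 CPM in HSPC-like cells of the unchallenged, once-challenged and twice-challenged libraries, and the part of such free or carried RNA in the results was not tested.

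Together, the 29 genes were higher after challenge in all kept cells and in neutrophil progenitor-like cells. In all kept cells they summed to 433, 560 and 578 CPM in the unchallenged, once-challenged and twice-challenged libraries, which is 1.34-fold (1.32 to 1.35) for twice-challenged over unchallenged. In neutrophil progenitor-like cells they summed to 523, 657 and 691 CPM in the same order, a 1.32-fold difference (1.28 to 1.36) for twice-challenged over unchallenged. HSPC-like cells held 576, 611 and 646 CPM, a 1.12-fold difference (1.08 to 1.16). With each class given its share in the unchallenged library, the summed log2 fold over all kept cells was 0.21 for twice-challenged over unchallenged, against 0.42 unweighted. The class shares given above moved with the total.

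The branches of the module differed. The 4 fatty acid enzymes summed to 185, 210 and 268 CPM in HSPC-like cells and to 131, 188 and 244 CPM in neutrophil progenitor-like cells of the unchallenged, once-challenged and twice-challenged libraries. The 19 sterol enzymes summed to 260, 283 and 245 CPM in HSPC-like cells and to 307, 372 and 338 CPM in neutrophil progenitor-like cells. For twice-challenged over unchallenged, the fatty acid branch was thus 1.45-fold (1.36 to 1.54) in HSPC-like and 1.87-fold (1.77 to 1.98) in neutrophil progenitor-like cells, and the sterol branch 0.944-fold (0.892 to 0.999) and 1.10-fold (1.06 to 1.15). Most of the fatty acid difference was 1 gene, Scd2. Without it, the other 3 enzymes stood at 1.17-fold (1.07 to 1.28) in HSPC-like and 1.37-fold (1.27 to 1.48) in neutrophil progenitor-like cells, and the 28 other members summed to 1.01-fold (0.967 to 1.05) and 1.18-fold (1.14 to 1.21).

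**Figure D1:**
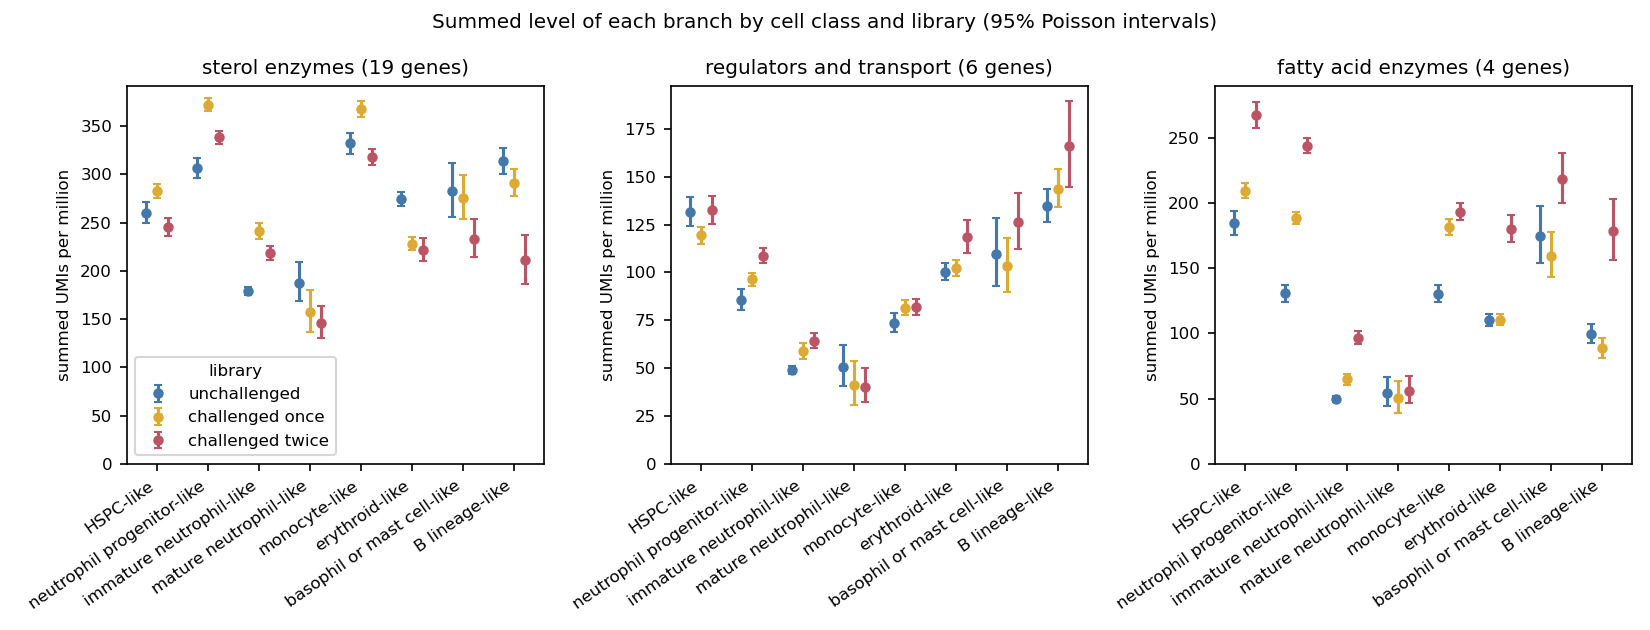
Summed level of the 19 sterol enzymes, the 6 regulators and the 4 fatty acid enzymes, in CPM of the class, by cell class and library, with 95% Poisson intervals. The fatty acid enzymes of the twice-challenged library stand above those of the unchallenged library in 7 of the 8 classes by their intervals, while the sterol enzymes show no such shared direction.

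A gene was called different when its ratio, after adding 10 CPM to both values, was at least 1.5-fold, and it was measured when the pair of libraries held at least 100 UMIs of it. Folds printed with an interval had nothing added, so such a fold can pass 1.5-fold where the gene was not called. In HSPC-like cells, twice-challenged over unchallenged, 1 of 25 measured members was higher and 0 were lower, where 1.64% of all measured genes were higher and 7.11% lower. In neutrophil progenitor-like cells 1 of 27 was higher and 0 lower (2.02% and 5.32% of all genes), and over all kept cells 1 of 29 and 0 (2.3% and 4.06%). The 1 member was Scd2 each time. After 1 challenge, against unchallenged, 0 of 26 measured members were called in HSPC-like cells (1.29% of all genes higher, 1.41% lower), and 2 of 28 were higher and 0 lower in neutrophil progenitor-like cells (2.18% and 1.24% of all genes), namely Mvd and Fasn, neither of which passed when libraries were scaled by the median of gene ratios. Over all kept cells 1 of 29, Scd2, was higher and 0 lower after 1 challenge (1.99% and 1.52% of all genes). Between the 2 challenged libraries, twice-challenged over once-challenged, Scd2 was the 1 higher member in all kept cells (1.44% of all genes), HSPC-like (1.41%) and neutrophil progenitor-like cells (1.38%). The 1 lower member was Acat2 in all kept cells (8.43%), with 0 in HSPC-like (8.83%) and neutrophil progenitor-like cells (9.45%). The median member log2 ratio, twice-challenged over unchallenged, was 0.01 in HSPC-like and 0.13 in neutrophil progenitor-like cells, against -0.11 and -0.07 over all measured genes. Thinned to 2000 UMIs in each cell, these medians were 0.22 over the 5 and 0.34 over the 7 members still measured, against -0.18 and -0.11 over all genes. The median of gene ratios on which that scaling rests was, in log2, -0.17 in HSPC-like and -0.13 in neutrophil progenitor-like cells, so it raises every ratio there. Counts of 1 or 2 members cannot be set apart from these background shares.

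**Figure D2:**
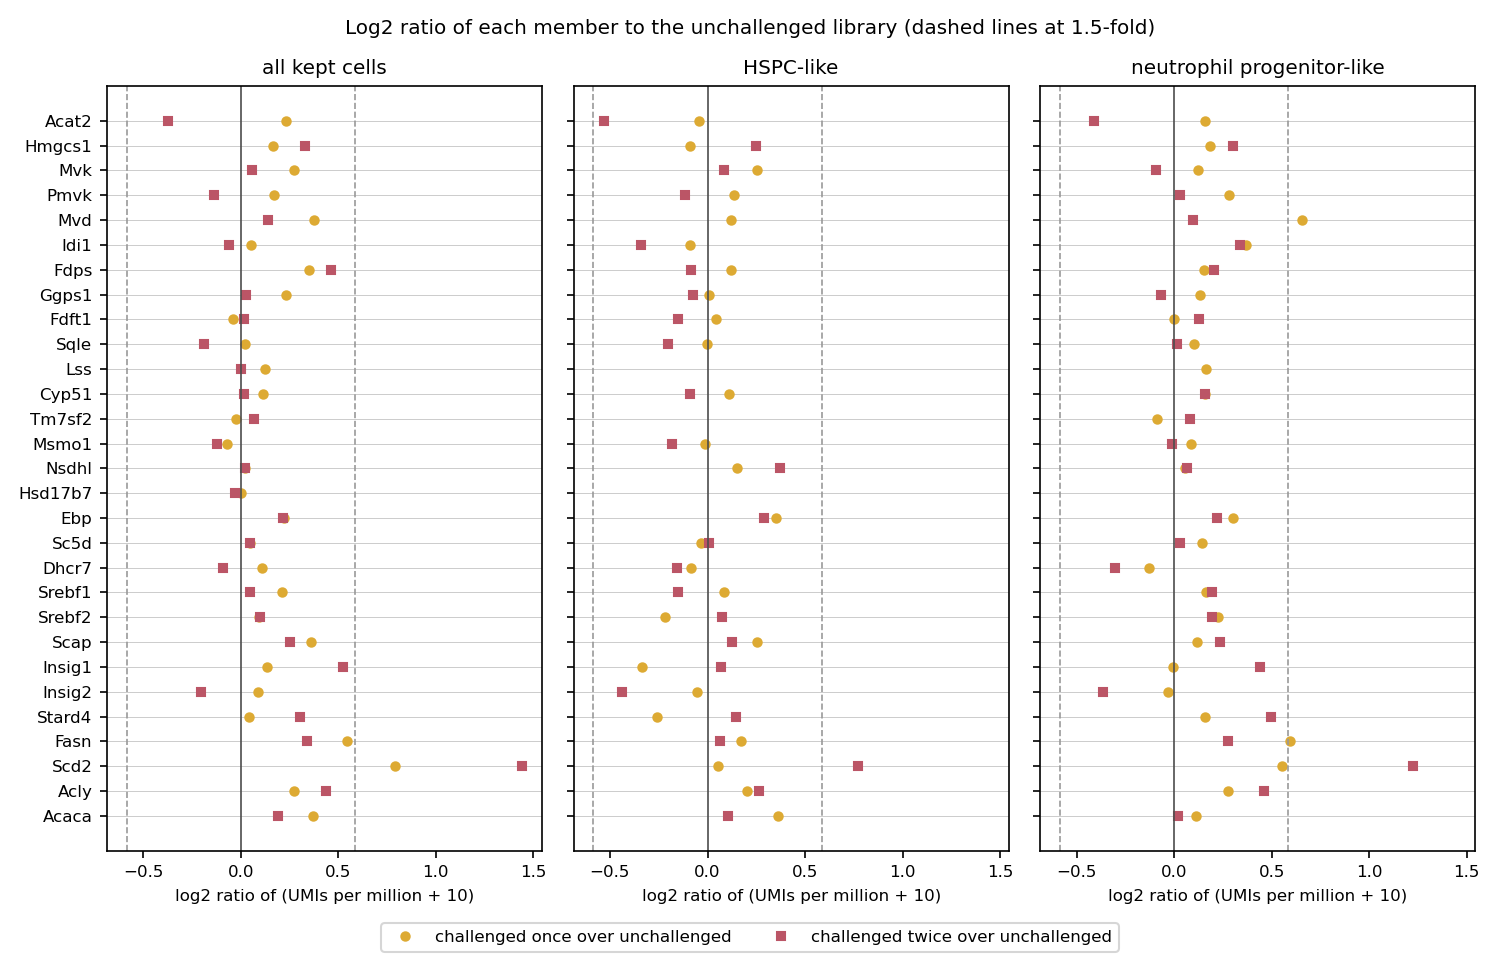
Log2 ratio of CPM plus 10 for each member, once-challenged (circles) and twice-challenged (squares) over unchallenged, in all kept cells, HSPC-like and neutrophil progenitor-like cells, with dashed lines at 1.5-fold. Scd2 lies farthest right after 2 challenges, at 1.44 in all kept cells, 0.77 in HSPC-like and 1.22 in neutrophil progenitor-like cells, and Acat2 lies farthest left, at -0.37, -0.53 and -0.41.

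Scd2 encodes a stearoyl-CoA desaturase, which puts a double bond into saturated fatty acids. It had 82.8, 86.3 and 149 CPM in HSPC-like cells and 53.7, 83.4 and 139 CPM in neutrophil progenitor-like cells of the unchallenged, once-challenged and twice-challenged libraries. Immature neutrophil-like cells had 7.52, 14.7 and 35.8 CPM and monocyte-like cells 41.1, 69.2 and 90.9 CPM. Erythroid-like cells had 31.5, 31.4 and 69.7 CPM, basophil or mast cell-like cells 66.5, 75.8 and 129 CPM, and B lineage-like cells 24.4, 23.6 and 73.7 CPM. The twice-challenged library was the highest in each of these 7 classes. Its fold over the unchallenged library was 1.80 (1.64 to 1.96) in HSPC-like, 2.58 (2.37 to 2.82) in neutrophil progenitor-like and 4.76 (4.14 to 5.49) in immature neutrophil-like cells, where different clusters hold most of the class in the 2 libraries: cluster 0 held 68 cells after 2 challenges and 1750 in the unchallenged library, and cluster 15 held 583 and 31. Within clusters 3 and 8 of that class, Scd2 had 5.15 and 17.4 CPM unchallenged against 22.7 and 57.7 CPM after 2 challenges. Mature neutrophil-like cells, with 8.36, 4.56 and 11.6 CPM, did not reach 100 UMIs in the pair.

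In 7 of 7 measured classes with at least 100 cells in every library, Scd2 was at least 1.5-fold higher, twice-challenged over unchallenged. Of genes measured in at least 6 such classes, 17 of 6314 (0.269%) were so in every one. Scd2 was above 0 on the log2 scale in 14 of the 14 clusters with 100 or more cells in every library, from 0.25 to 1.31. The other 16 genes include the mitochondrial transcripts mt-Co1 and mt-Nd3, the ribosomal protein gene Rpl38, and Egr1, an early response transcription factor, all chosen after their values were seen. The part of RNA quality, with a mitochondrial share of 4.10% against 2.07%, was not tested. In the other classes, twice-challenged over unchallenged, the higher members were Scd2 alone in monocyte-like (1 of 26, 1.87% of all genes), erythroid-like (1 of 26, 2.14%) and basophil or mast cell-like cells (1 of 6, 4.69%), and Scd2 with Fdps in immature neutrophil-like cells (2 of 28, 2.63%). No member was lower in these classes, where 5.76%, 6.54%, 16.6% and 3.54% of all genes were. After 1 challenge, against unchallenged, the 1 higher member of 26 was Scd2 in monocyte-like (0.775% of all genes) and Fdps in immature neutrophil-like cells (1.84%), with 0 lower (0.921% and 0.255%). Scaled by the median of gene ratios, Scd2 was past 1.5-fold in 7 of 7 classes after 2 challenges, from 0.93 to 1.49 on the log2 scale, and in 0 of 7 after 1 challenge. By total UMIs, Scd2 after 1 challenge was 0.55 on the log2 scale in neutrophil progenitor-like, 0.63 in monocyte-like and 0.05 in HSPC-like cells, and near 0 in erythroid-like and -0.04 in B lineage-like cells.

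**Figure D3:**
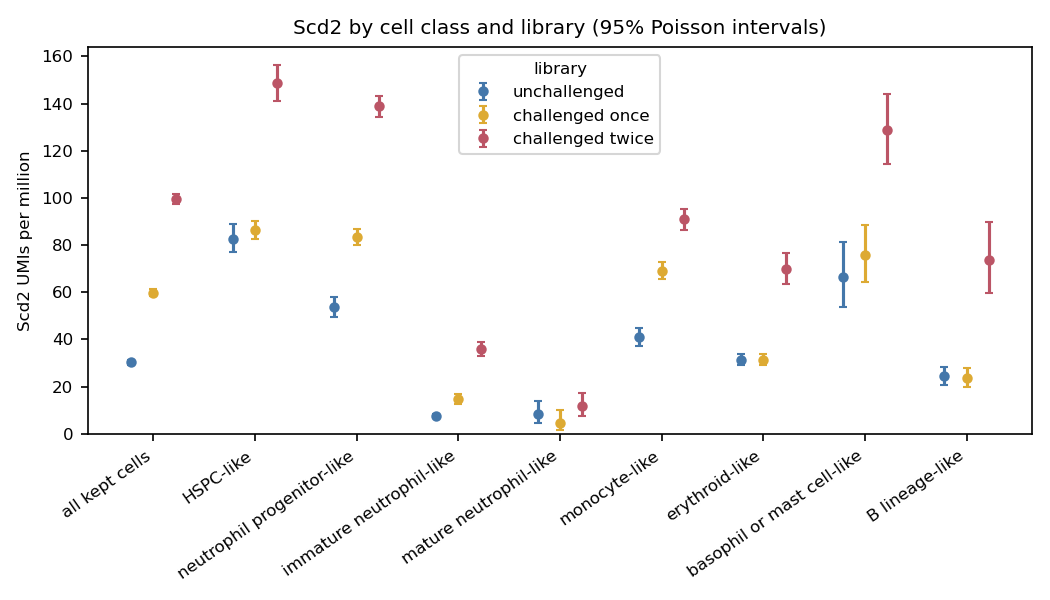
Scd2 level in CPM of each class in the unchallenged, once-challenged and twice-challenged libraries, with 95% Poisson intervals. The twice-challenged library reaches 149 in HSPC-like and 139 in neutrophil progenitor-like cells, and its interval lies above both others in every class drawn except mature neutrophil-like cells.

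Of the other fatty acid enzymes, Acly, which splits citrate into acetyl-CoA, had 59.4, 69.8 and 73.2 CPM in HSPC-like and 49.8, 62.4 and 72.2 CPM in neutrophil progenitor-like cells of the unchallenged, once-challenged and twice-challenged libraries. Fasn, the fatty acid synthase, had 31.9, 37.2 and 33.8 CPM in HSPC-like cells. Fasn reached 17.1, 30.9 and 22.7 CPM in neutrophil progenitor-like cells, and its fold for once-challenged over unchallenged was 1.81 (1.55 to 2.12). Its highest level there was thus in the once-challenged library, unlike that of Scd2. Acaca, the acetyl-CoA carboxylase that makes malonyl-CoA, had 10.4, 16.3 and 11.9 CPM in HSPC-like cells, highest in the same library.

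Among the early mevalonate enzymes, Acat2, which joins acetyl-CoA units in the cytosol, was lower after 2 challenges in every measured class. It had 24.4, 23.4 and 13.9 CPM in HSPC-like cells and 17.0, 20.2 and 10.3 CPM in neutrophil progenitor-like cells of the unchallenged, once-challenged and twice-challenged libraries. Its fold for twice-challenged over unchallenged was 0.568 (0.456 to 0.704) in HSPC-like cells, with nothing added to the CPM. After adding 10 CPM, its log2 ratio ran from -0.78 in B lineage-like to -0.33 in immature neutrophil-like cells over 6 of 6 measured classes. Acat2 was below 0 in all 14 clusters too. Of all genes measured in at least 6 classes, 34.2% were below 0 in every one, as were 4 of 20 members, namely Acat2, Msmo1, Dhcr7 and Insig2. Under scaling by the median of gene ratios Acat2 was still below 0 in 6 of 6, Msmo1 and Insig2 in 5 of 6 and Dhcr7 in 4 of 6. The last 300 bases of 1 of 3 Acat2 transcripts share up to 29.3% of their 31-base words with Acat3, so its counts may be split between them. In at least 1 transcript the same holds for up to 100% of these words in Acaca, 94.1% in Idi1, 60.4% in Ggps1, 18.1% in Tm7sf2 and 16.7% in Sc5d, each shared with other annotated genes, so their values carry the same limit.

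Hmgcs1, which makes HMG-CoA, had 19.8, 18.1 and 25.4 CPM in HSPC-like cells and 10.2, 12.9 and 14.9 CPM in neutrophil progenitor-like cells of the unchallenged, once-challenged and twice-challenged libraries. Mvd, which decarboxylates mevalonate diphosphate, had 6.75, 16.3 and 7.89 CPM in neutrophil progenitor-like cells, a 2.42-fold difference (1.91 to 3.11) for once-challenged over unchallenged. Its level in the twice-challenged library was close to the unchallenged one. Lss, Tm7sf2 and Hsd17b7, late sterol enzymes, were the lowest members, with 1.89, 2.97 and 1.89 CPM, 2.46, 2.24 and 3.07 CPM, and 2.60, 2.63 and 2.33 CPM over all kept cells.

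The middle and late sterol enzymes that were measured stayed within 1.5-fold, after adding 10 CPM, in HSPC-like and neutrophil progenitor-like cells, twice-challenged over unchallenged. Ebp, a sterol isomerase, had 37.99, 51.1 and 48.7 CPM in HSPC-like cells of the unchallenged, once-challenged and twice-challenged libraries. Idi1, the isopentenyl diphosphate isomerase, had 18.3, 16.5 and 12.3 CPM there but 10.5, 16.4 and 15.9 CPM in neutrophil progenitor-like cells. Sqle had 11.1, 11.1 and 8.34 CPM in HSPC-like and 17.0, 13.4 and 12.3 CPM in erythroid-like cells.

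Of the others, Pmvk, the phosphomevalonate kinase, had 40.3, 34.1 and 26.5 CPM in erythroid-like cells, against 22.1, 25.2 and 19.6 CPM in HSPC-like cells. Mvk, the mevalonate kinase, had 7.40, 10.8 and 8.44 CPM in HSPC-like cells, and Ggps1, which makes geranylgeranyl diphosphate, had 15.9, 16.1 and 14.6 CPM. Cyp51, the lanosterol demethylase, had 9.30, 10.8 and 8.15 CPM in HSPC-like cells, and Fdft1, the squalene synthase, had 6.61, 7.13 and 4.95 CPM. Nsdhl, a sterol dehydrogenase, had 3.36, 4.81 and 7.27 CPM, with the highest value in the twice-challenged library. Dhcr7 had 13.6, 12.2 and 11.2 CPM in HSPC-like cells and 11.4, 9.55 and 7.28 CPM in neutrophil progenitor-like cells.

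Fdps makes farnesyl diphosphate, the branch point towards sterols, prenyl groups, dolichol and ubiquinone. It had 108, 122 and 126 CPM in neutrophil progenitor-like cells and 107, 110 and 93.5 CPM in monocyte-like cells, against 37.7, 41.9 and 34.9 CPM in HSPC-like cells, for the unchallenged, once-challenged and twice-challenged libraries. It was 1 of 25 measured members at least 1.5-fold higher in neutrophil progenitor-like over HSPC-like cells in all 3 libraries, as were 4.58% of all genes, and 1 of 25 higher in monocyte-like over HSPC-like cells (2.7%). Immature neutrophil-like cells had 38.4, 69.3 and 73.3 CPM, 1.91-fold (1.77 to 2.06) for twice-challenged over unchallenged, and B lineage-like cells had 44.8, 34.8 and 21.5 CPM, 0.479-fold (0.313 to 0.706). Within clusters the immature value was smaller, with 24.3, 32.5 and 32.1 CPM in cluster 3 and 91.3, 128 and 119 CPM in cluster 8. The share of the class in each cluster moved with the value for the whole class. At its 3′ end Fdps shares 72.6% to 100% of its 31-base words with 6 annotated pseudogenes, so its counts are uncertain.

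**Figure D4:**
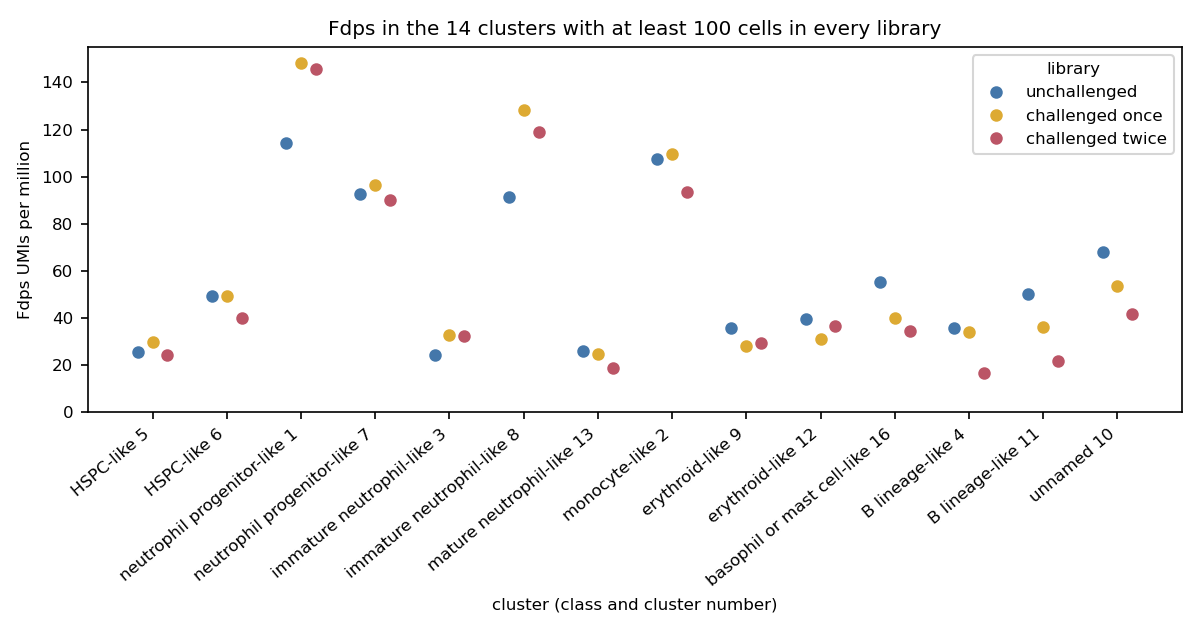
Fdps level in CPM in the 14 clusters with at least 100 cells in every library, for the unchallenged, once-challenged and twice-challenged libraries. Neutrophil progenitor-like cluster 1 and immature neutrophil-like cluster 8 stand between 91.3 and 148, while both B lineage-like clusters are lowest in the twice-challenged library, at 16.5 and 21.6.

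Among the regulators, the INSIG genes, whose products hold SREBP back when sterol is plentiful, differed in direction after 2 challenges. Insig1 had 14.5, 14.4 and 23.3 CPM in neutrophil progenitor-like cells and 4.88, 5.26 and 8.55 CPM in immature neutrophil-like cells of the unchallenged, once-challenged and twice-challenged libraries, but 14.6, 9.49 and 15.8 CPM in HSPC-like cells. Its fold for twice-challenged over unchallenged was 1.60 (1.35 to 1.91) in neutrophil progenitor-like cells, and its log2 ratio in HSPC-like cells was 0.07, with -0.32 to 0.18 under other processing choices. The HSPC-like clusters went opposite ways, at -0.33 in cluster 5 and 0.38 in cluster 6. Cluster 5 held 490 cells in the unchallenged and 395 in the twice-challenged library, and cluster 6 held 287 and 470. The part of this mix in the Insig1 value of the class was not tested. Insig2 had 15.2, 14.3 and 8.63 CPM in HSPC-like and 16.6, 16.0 and 10.7 CPM in neutrophil progenitor-like cells. Its fold for twice-challenged over unchallenged was 0.566 (0.429 to 0.745) and 0.643 (0.533 to 0.776) in these classes. With 10 CPM added, neither INSIG gene passed 1.5-fold in any measured class. Of the 14 clusters, 12 were above 0 for Insig1 and 0 for Insig2.

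Srebf2 had 47.4, 39.3 and 50.5 CPM in HSPC-like cells and 15.04, 19.3 and 18.6 CPM in neutrophil progenitor-like cells of the unchallenged, once-challenged and twice-challenged libraries, and was at least 1.5-fold lower in the second class in all 3, as were 8.26% of all genes. It was also the 1 of 25 lower in monocyte-like over HSPC-like cells in all 3 (4.83%), while in erythroid-like over HSPC-like cells the 2 of 24 lower members were Hmgcs1 and Scd2 (11.1%). Across classes, Srebf2, Scap and Scd2 were the 3 of 20 members above 0 in every measured class, twice-challenged over unchallenged, as were 12.5% of all genes. Srebf2 was measured in 7 of 8 classes. In the class left out, mature neutrophil-like cells, Srebf2 was 0.563-fold with nothing added, and the interval lay below 1. Srebf1 had 20.6, 22.4 and 20.9 CPM in erythroid-like cells, and its log2 ratio, twice-challenged over unchallenged, was above 0 in 4 and below 0 in 2 of 6 measured classes, from -0.45 to 0.19. Scap was highest in B lineage-like cells, with 33.3, 45.3 and 58.3 CPM, a 1.75-fold difference (1.33 to 2.28) for twice-challenged over unchallenged. In that class 2 of 19 measured members were higher, Scd2 and Scap (5.95% of all genes), and 4 lower, namely Acat2, Fdps, Sqle, the squalene epoxidase, and Dhcr7, the last enzyme of cholesterol synthesis (17.7% of all genes). Cluster 22, led by Igkc and Jchain, held 41 of 1234 B lineage-like cells in the unchallenged and 110 of 502 in the twice-challenged library. The median cell of the class held 3613.5 and 1396 UMIs, and the part of either in these values was not tested. Stard4, a carrier of cholesterol between membranes, had 12.5, 15.1 and 21.7 CPM in neutrophil progenitor-like and 20.7, 15.7 and 24.0 CPM in HSPC-like cells.

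Along the neutrophil path the module was lower in immature and mature than in progenitor-like cells, and mature cells were below immature ones in the challenged libraries only. Its sum was 523, 657 and 691 CPM in neutrophil progenitor-like, 278, 365 and 379 CPM in immature and 293, 249 and 243 CPM in mature neutrophil-like cells, for the unchallenged, once-challenged and twice-challenged libraries. In all 3 libraries, 6 of 27 measured members were at least 1.5-fold lower in immature neutrophil-like over neutrophil progenitor-like cells, namely Acat2, Fdps, Scap, Insig1, Fasn and Scd2, as were 25.2% of all genes. Different clusters hold the mature class, too: cluster 14 held 433 cells in the twice-challenged, 278 in the once-challenged and 3 in the unchallenged library. Msmo1, a sterol C4-methyl oxidase, stood the other way, with 48.5 CPM (38.9 to 59.8), 31.9 CPM (23.0 to 43.2) and 31.02 CPM (23.9 to 39.6) in mature neutrophil-like cells of the 3 libraries. Within cluster 13, the other mature neutrophil-like cluster, Msmo1 had 48.6, 52.0 and 39.0 CPM. Immature neutrophil-like cells had 16.1, 20.4 and 14.3 CPM and HSPC-like cells 12.1, 11.9 and 9.50 CPM of Msmo1, so mature cells were the highest of the 8 classes for it in each library. Sc5d, a sterol desaturase, had 8.36, 14.5 and 25.7 CPM in mature neutrophil-like cells, from 15, 19 and 53 UMIs. In mature over immature neutrophil-like cells, Msmo1 was the 1 of 24 higher members in the unchallenged library (9.36% of all genes), and Msmo1 and Sc5d the 2 of 16 in the twice-challenged one (14.6%), where 4 were lower, namely Fdps, Ebp, Stard4 and Scd2 (31.9%).

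**Figure D5:**
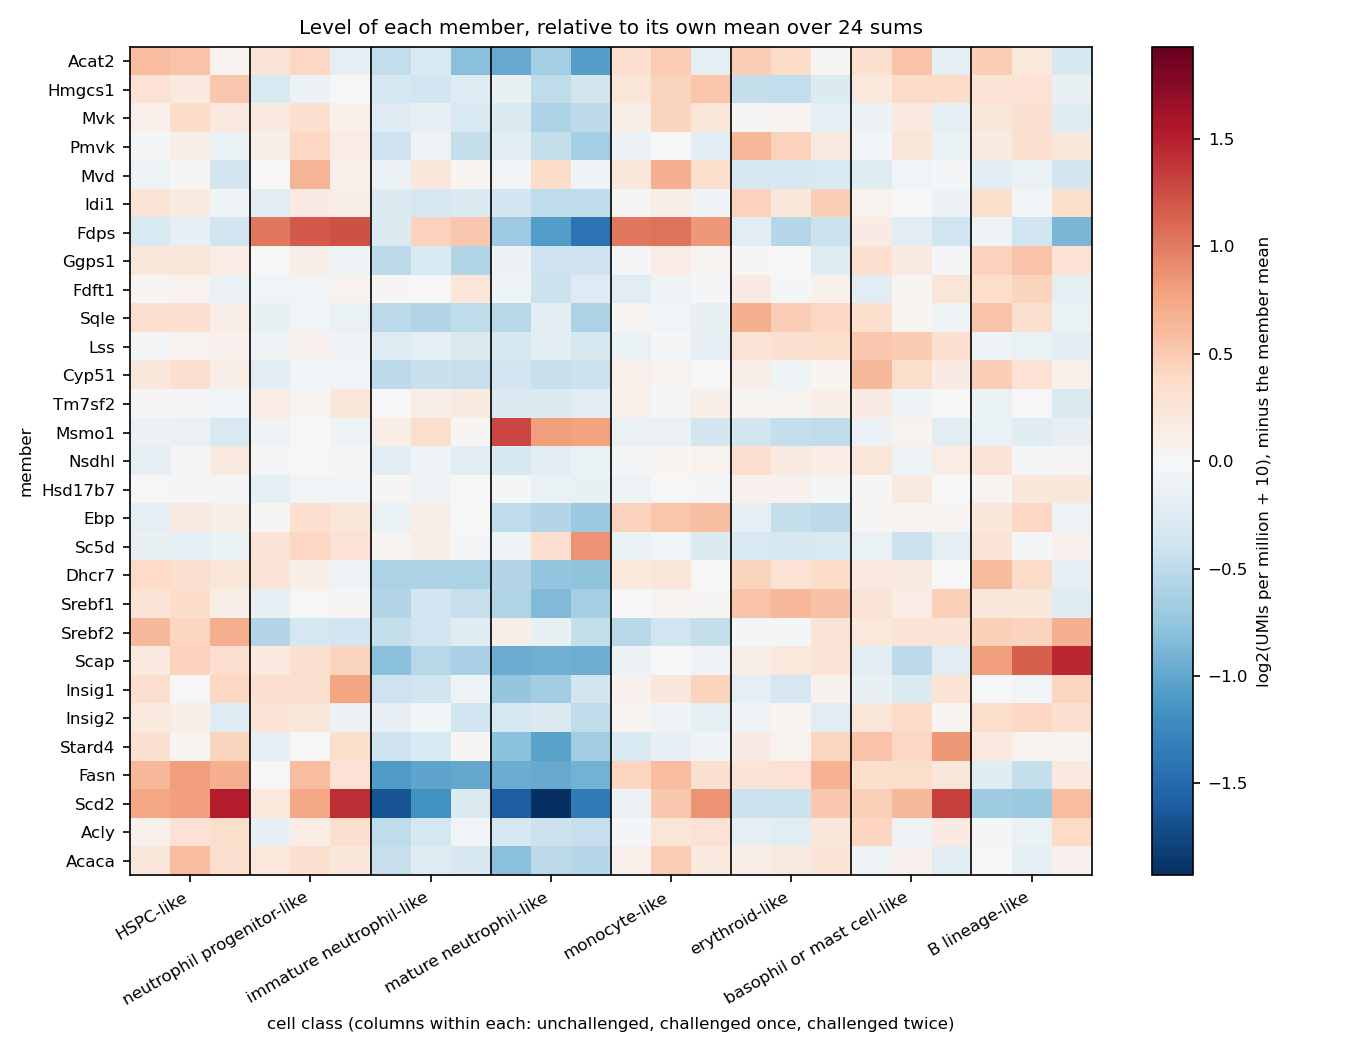
Level of each member, as log2(CPM + 10) minus its own mean, over 8 classes by 3 libraries, with the libraries of a class ordered unchallenged, once-challenged, twice-challenged. Mature neutrophil-like cells are pale to blue for most members but red for Msmo1, and Fdps is red in neutrophil progenitor-like and monocyte-like cells.

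Across the 24 class-by-library sums, which share libraries and depth, the sum of the other members ran with Fasn at r = 0.85, Acaca at 0.84, Acly at 0.83, Insig1 at 0.81 and Scd2 at 0.80, and with Msmo1 at -0.79. Of the 10618 genes compared, which include the members, those outside the module most like the 29-gene sum were Mrps33 (r = 0.97), Snd1 (0.96) and Polr2k (0.96). The S phase list stood at 0.79, below endoplasmic reticulum chaperones (0.86), fatty acid oxidation (0.86), isoprenoid use and prenylation (0.84) and other sterol genes (0.80). Sterol uptake genes stood at 0.71, LXR target and efflux genes at 0.18, elongation and desaturation genes at 0.14 and specific granule genes at -0.80. Cells thinned to 2000 UMIs were split by S phase transcripts. In neutrophil progenitor-like cells with at least 2 such UMIs against fewer, members summed to 547 against 462, 660 against 596 and 707 against 692 CPM in the unchallenged, once-challenged and twice-challenged libraries. In HSPC-like cells the pairs were 566 against 550, 630 against 583 and 635 against 662 CPM. The last pair stood the other way, but the pairs of both classes are given without intervals and their differences were not tested.

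The other lists are set beside the 1.64% of all genes higher and 7.11% lower in HSPC-like cells. In these cells, twice-challenged over unchallenged, 0 of 11 other sterol genes, 0 of 11 isoprenoid and prenylation genes and 0 of 12 fatty acid oxidation genes were called in either direction, with medians of 0.16, -0.08 and -0.26. Of 14 elongation and desaturation genes 0 were higher and 2 lower (median -0.33), Tecr, an enoyl-CoA reductase of elongation, at 123 against 204 CPM (log2 -0.69), and Mcat at 11.6 against 23.4 CPM. Of 12 uptake genes 1 was higher, Vldlr, a lipoprotein receptor, at 23.4 against 6.72 CPM (log2 0.997), and 1 was lower, Stard3, a late endosome cholesterol protein, at 9.89 against 21.6 CPM. Of 7 LXR target and efflux genes 1 was lower, Apoe, the lipid carrier, at 32.6 against 179 CPM (-2.15). In neutrophil progenitor-like cells 9 of 12 endoplasmic reticulum chaperone genes were higher after 1 challenge, against unchallenged, as were 2.18% of all genes (median 0.80), Hspa5 at 1245 against 591 CPM. Cluster 7, which has chaperones such as Hspa5 among its leading genes, held 567 of the 1158 cells of this class after 1 challenge and 183 of the 644 in the unchallenged library, and the part of this in the values of the class was not tested for most members. Fasn had 40.03 CPM after 1 challenge and 24.2 CPM unchallenged within cluster 7, and 21.2 and 14.4 CPM within cluster 1, the other large cluster of the class.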

How the data were processed

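The deposited count tables hold whole-number UMI counts per gene and cell barcode, made from a 10x Genomics 3' version 2 library per the labels. Cell Ranger 3.0.0 and mm10 are named per the submitters' processing notes, and the gene annotation used for counting is not given in the sources used here. Cells with at least 500 UMIs, 300 genes and at most 10% mitochondrial counts were kept, and doublets called by Scrublet in scanpy 1.11.5 (427, 294 and 256 cells in the unchallenged, once-challenged and twice-challenged libraries) were removed. Clustering used counts scaled to 10000 UMIs in each cell and was done with leidenalg 0.10.2 (2000 variable genes, 30 components, 15 neighbours, resolution 1), with the 29 members and the other pathway genes excluded. Clusters were named from marker lists, and a cluster with 3 or more of 6 lymphoid precursor genes among its top 10 was left unnamed, a rule added after the clusters were seen. UMIs were summed per class and library. Only named classes with at least 100 cells in every library were compared. Ratios and calls of single genes were taken after adding 10 CPM to both values, and only where both libraries together held 100 or more UMIs of a gene. Folds printed with an interval were taken with nothing added.

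With 1 library in each group, there was no test between groups. Intervals are exact Poisson or conditional binomial 95% intervals and cover counting error only. On simulated counts for HSPC-like cells, twice-challenged over unchallenged, 94 of 100 genes changed 2-fold were given the right direction and 57 passed 1.5-fold, 89 of 100 changed 4-fold passed, and 0 of 8600 unchanged genes passed. The simulated counts came from 1 pooled profile with counting error only. They held no difference between animals or libraries, so they cannot give the rate of false calls between the real libraries. All 29 members were to be named, with up to 4 genes of each other list and the 10 genes most like the module; not every one is printed. The members and lists were chosen with earlier results of these data known. Promoter windows came from RefSeq on GRCm38.p6, and Python 3.11.15, numpy 2.4.6, scipy 1.17.1 and pandas 2.3.3 were used.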

Additional observations from a re-analysis of the deposited data

Results flagged for a closer look

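Fdps had opposite directions in 2 classes. Its log2 ratio, twice-challenged over unchallenged, was 0.78 in immature neutrophil-like cells and -0.80 in B lineage-like cells, each with 1 library in each group, and the difference between the classes was not tested. The immature class is held mostly by different clusters in the 2 libraries, and within the 14 clusters with at least 100 cells in every library the ratio ran from -0.93 to 0.35 and was above 0 in 3.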

How the results depend on the processing

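No paired analysis was possible because each group has 1 library. Scd2 kept its direction, twice-challenged over unchallenged, at 1.08 to 1.68 in all kept cells, 0.71 to 0.93 in HSPC-like and 1.22 to 1.35 in neutrophil progenitor-like cells. No called value changed sign, some medians below did, and the causes of the shifts were not tested. Of the counts, medians and sums, 55 moved and 227 did not, and of single genes 52 moved and 328 did not.

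Counts of members past 1.5-fold moved as follows. With 1 CPM added, the higher counts after 1 challenge over unchallenged were 4 in all kept cells, 1 in HSPC-like and 5 in neutrophil progenitor-like cells, where 6.62%, 3.78% and 6.49% of all genes were higher. For twice-challenged over unchallenged they were 2, 2 and 3 higher (8.01%, 4.75% and 6.8% of all genes), with 1, 2 and 2 lower (11.7%, 16.2% and 14.2%). For twice-challenged over once-challenged they were 2, 2 and 2 higher (5.1%, 5.17% and 4.7%), with 3 lower in HSPC-like (17.2%) and 2 lower in neutrophil progenitor-like cells (20.1%). Under median-of-ratios scaling, neutrophil progenitor-like counts were 0 higher for once-challenged over unchallenged and 2 higher for twice-challenged over once-challenged (3.27% of all genes), and the lower count of all kept cells was 0 for twice-challenged over once-challenged, as when thinned to 2000 UMIs or weighted by unchallenged class shares. Weighting also gave 0 higher for once-challenged over unchallenged. Thinning, like the filter of 1000 UMIs and 500 genes, gave 1 higher in neutrophil progenitor-like cells for once-challenged over unchallenged. That filter gave 1 lower in HSPC-like cells for twice-challenged over unchallenged and 1 lower in neutrophil progenitor-like cells for twice-challenged over once-challenged. Doublets kept, resolution 2 and pathway genes in the clustering each gave 1 lower in HSPC-like cells for twice-challenged over unchallenged and 1 lower for twice-challenged over once-challenged, the first and last also 2 higher for twice-challenged over once-challenged (2.76% and 2.95% of all genes). Where 1 was lower under these 4 choices, 9.95% to 13.8% of all genes were.

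Median log2 ratios moved to 0.035 in all kept cells for once-challenged over unchallenged and 0.028 for twice-challenged over once-challenged under median-of-ratios scaling, and to 0.080 and 0.082 in neutrophil progenitor-like cells. With 1 CPM added, once-challenged over unchallenged gave 0.25 in all kept cells and 0.23 in neutrophil progenitor-like cells. Thinning gave 0.23 and 0.22 in HSPC-like cells for once-challenged and twice-challenged over unchallenged, and 0.093, 0.34 and 0.17 in neutrophil progenitor-like cells for once-challenged over unchallenged, twice-challenged over unchallenged and twice-challenged over once-challenged. Class weighting gave 0.046 in all kept cells for once-challenged over unchallenged. In HSPC-like cells that median was -0.065 with doublets kept and -0.056 at resolution 2, against 0.05 in the values reported.

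Summed log2 folds in all kept cells moved to 0.32, 0.40 and 0.082 when thinned, and to 0.13, 0.21 and 0.075 when weighted, for once-challenged over unchallenged, twice-challenged over unchallenged and twice-challenged over once-challenged. HSPC-like cells gave 0.14 for once-challenged over unchallenged when thinned and 0.014 under the stricter filter, and neutrophil progenitor-like cells gave 0.11 for twice-challenged over once-challenged when thinned. Joining the unnamed cluster to the monocyte class, an alternative chosen after seeing the data, gave a summed level of 590 in place of 593 CPM in the twice-challenged library.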
